A study of Mus musculus with 36 samples.

Results

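The comparison described here set livers of TB mice, the animals bearing lung adenocarcinoma, against livers of WT mice at a single Zeitgeber time, ZT 4. Zeitgeber time counts hours from lights on, so ZT 4 lies in the rest phase of a mouse. The tumour label is of the lung, and the design asks which transcripts of this distant organ differ between the genotypes at that hour. Members were chosen by the sample titles: 6 of the 36 arrays of the series, 3 from TB and 3 from WT livers, with no use of a measured value.

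The liver answers inflammatory cytokines, above all interleukin-6, with the acute phase response. The cytokine signals through the receptor subunit gp130 and the transcription factor STAT3, hepatocytes secrete serum amyloid, orosomucoid, haptoglobin and fibrinogen, and SOCS3 feeds back on the receptor. The liver also holds a circadian clock, in which CLOCK or NPAS2 pairs with BMAL1 (gene Arntl) and drives the Per and Cry repressors, and both programs meet in glucose, lipid and bile acid metabolism.

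The TB mice carried the engineered genotype of the tumour model and the disease label lung adenocarcinoma. WT mice carried neither, and both groups were on a C57BL/6 background, kept in 12 h of light and 12 h of dark. The alleles of the model are not reported here, and age, sex and the start of tumour growth are not given in the labels. Total RNA of flash-frozen liver was hybridised to 1-colour Affymetrix arrays, 1 array per sample. Nothing in the labels says whether the 3 samples of a group came from separate animals, so p-values measure only the spread between these samples, which may be technical. Levels below are log2(value + 16) of the deposited intensity, a scale on which a signal of 0 reads 4, and differences are TB minus WT on that scale with the standard error of the fit.

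Pearson correlations over 22180 genes lay between 0.975 and 0.988 among the 3 TB arrays, between 0.979 and 0.989 among the 3 WT arrays, and between 0.974 and 0.987 across the genotypes. Across genes, arrays of different genotype were thus about as alike as arrays of 1 genotype. In a principal component analysis of unnamed probe sets, after group means were removed, the leading component (28.57% of the variance) parted the 36 arrays into sets of 24 and 12. Replicate 1 of TB and replicate 1 of WT both belonged to the set of 12, so each array set holds both genotypes at ZT 4, and some differences are also given within the sets. The 10 hepatocyte markers had mean levels of 6.69 to 13.6 in TB and 7.35 to 13.6 in WT livers. Of these 7 were lower in TB on average, and all TB arrays lay below all WT arrays in 4 (Ass1, Cps1, Tat and Ttr, against 4.58% of all genes) and above in 1, with a median difference of -0.04. Alb, the gene of serum albumin and the marker above, read 13.58, 13.60 and 13.66 in TB and 13.52, 13.58 and 13.56 in WT livers. Xist lay between 5.26 and 5.49 in TB and between 5.16 and 5.43 in WT, and the Y-linked Eif2s3y lay between 7.74 and 8.10 in TB and between 7.72 and 7.96 in WT, so no array stood apart in these genes. A single probe set without a gene symbol parted all TB from all WT arrays of the series, with 306.6 to 348.3 intensity units in TB and 0.0 to 1.3 in WT livers at ZT 4, and no array went against its label.

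**Figure D1:**
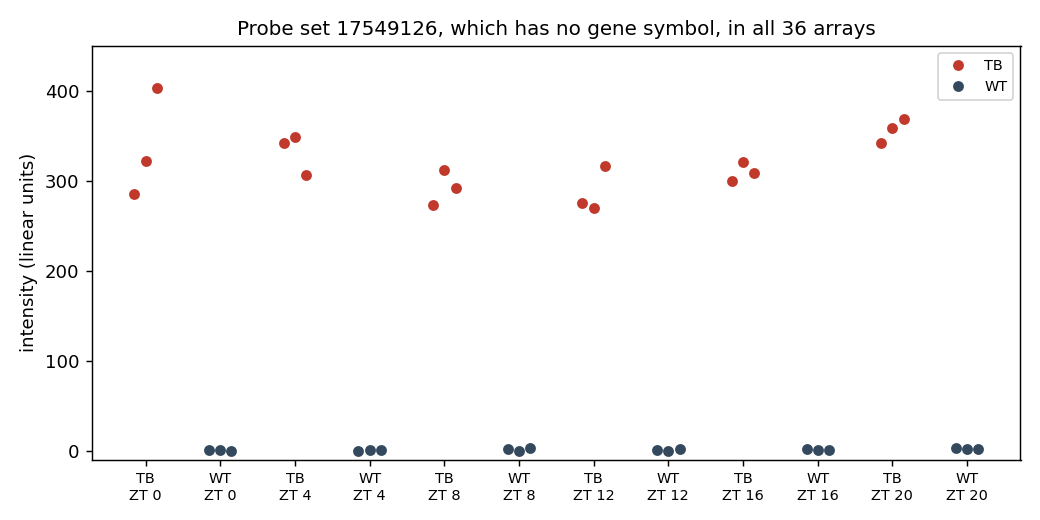
Intensity (linear units) of probe set 17549126, which has no gene symbol, in 3 TB (red) and 3 WT (dark) arrays at each ZT. The 18 TB arrays lie between 270.2 and 403.7 and the 18 WT arrays between 0.0 and 3.5.

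No gene passed the test at ZT 4. limma's moderated test with Benjamini-Hochberg adjustment over 22180 genes called 0 genes higher and 0 lower in TB (0.0% called) at an adjusted p under 0.05, and the smallest adjusted p was 0.176, for the predicted gene Gm11565. Other settings of limma called 0 to 2 genes, of which Gm11565 passed with a pseudocount of 1, with the array set as a block and with array weights, and leaving out WT replicate 3 gave 1 call, 1600029O15Rik. Without adjustment, 416 genes had a higher mean in TB (1.88%) and 306 a lower mean (1.38%) with p under 0.05, together 3.26% of all genes. The 3 TB arrays all lay above the 3 WT arrays for 1065 genes (4.8%) and all below for 1015 genes (4.58%), together 9.38%. With 1 array fewer these shares are larger by construction, at 8.4% to 10.7% above and 7.68% to 15.8% below, and in the 4 arrays of the larger set 17.6% lay above and 22.8% below. The mean TB level lay above the WT level for 48.7% of genes and below it for 51.3%, and the median difference was -0.00477. A difference above 1 was found for 19 genes (0.0857%) and below -1 for 8 genes (0.0361%). Every named gene below therefore had an adjusted p of 0.24 or more, and its values are a description of these 6 arrays.

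Apart from the lists of leading genes of the whole series, the acute phase list had the largest share of genes separated on the 6 arrays. Like the other lists, it was chosen with earlier results of these data known. Of 34 listed genes 31 were measured, 27 of them had a positive difference, and in 20 of the 31 (64.5%, against 4.8% of all genes) every TB array lay above every WT array. In 1 gene, Ttr, every TB array lay below; transthyretin is a carrier protein known to fall in the acute phase, and its difference was -0.08 ± 0.08. The median difference over the list was 0.35, against -0.00477 over all genes, and 7 members had an unadjusted p under 0.05, all with higher means in TB. The list's per-array mean, with each gene centred on these 6 arrays, was 0.18, 0.29 and 0.73 in TB replicates 1 to 3. It was -0.17, -0.52 and -0.51 in WT replicates 1 to 3. The summed intensity of the 31 genes lay between 104700 and 132900 in TB and between 88960 and 97150 in WT livers. The arrays of the larger set gave a list median of 0.50 and those of the smaller set one of 0.18. Leaving out any 1 of the 6 arrays left 20 to 23 of the 31 genes with TB above WT, against 8.4% to 10.7% of all genes, and the larger set alone gave 23, against 17.6%.

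Saa2 encodes serum amyloid A2, an apolipoprotein that the inflamed liver releases in bulk. It read 8.75, 10.75 and 11.31 in TB and 7.89, 6.55 and 5.90 in WT livers. The groups did not overlap, but replicate 1 of each stood nearest to the other group. The difference was 3.49 ± 1.09 (11.2-fold on the linear value + 16), the largest positive difference of any gene at ZT 4, with an adjusted p of 1.00. It was 4.80 within the larger array set and 0.86 between the 2 arrays of the smaller set. The arrays may not tell the near-identical serum amyloid genes apart. Saa4, the constitutive member, read 12.22, 12.30 and 12.58 in TB and 12.12, 12.20 and 12.07 in WT, a difference of 0.23 ± 0.21. Saa3, which in mice is made largely by macrophages and adipocytes, read 6.49, 5.81 and 6.77 in TB and 6.52, 5.91 and 5.97 in WT livers, and there the groups overlapped.

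Lcn2 encodes lipocalin 2, which binds bacterial iron carriers. It read 10.18, 10.58 and 11.42 in TB and 8.43, 6.79 and 6.63 in WT livers. All TB arrays lay above all WT arrays, and the difference was 3.44 ± 0.97 (10.9-fold, unadjusted p 0.00132 in limma, adjusted p 1.00). It was 4.29 within the larger and 1.75 within the smaller array set. Lcn2 is also a granule gene of neutrophils, as is Prtn3, the gene of proteinase 3. Prtn3 read 6.74, 6.07 and 8.20 in TB, against 4.61, 4.20 and 4.24 in WT livers, where it sat near the floor of the scale; its difference was 2.65 ± 0.86. The 13 other neutrophil markers had a median difference of 0.04. Their mean levels were 4.95 to 6.34 in TB and 4.89 to 6.26 in WT livers. Of the 13, 0 had all TB arrays above all WT arrays, against 4.8% of all genes. In 1, Ly6g, all TB arrays lay below (7.69%, against 4.58%). The summed intensity of the 13 was 442.7 to 459.6 in TB and 416.9 to 450.1 in WT livers. Ly6g, the defining surface marker, read 5.09, 5.20 and 5.27 in TB and 5.49, 5.40 and 5.43 in WT livers.

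The orosomucoid genes encode plasma carriers of basic drugs and hormones. Orm2 read 9.60, 10.24 and 11.80 in TB and 8.49, 8.16 and 8.01 in WT livers. Orm3 read 7.12, 6.41 and 7.87 in TB and 5.81, 5.96 and 5.88 in WT livers. Neither gene's groups overlapped, and replicate 3 was the highest TB array for both; the differences were 2.33 ± 0.90 and 1.25 ± 0.71. That of Orm2 was 2.93 in the larger and 1.11 in the smaller array set. Orm1 had a difference of 0.35 ± 0.24, also without overlap. These genes are near-identical and their probe sets may share signal.

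Fgl1, a hepatocyte-secreted relative of fibrinogen, read 11.67, 11.36 and 12.00 in TB and 11.01, 9.33 and 9.70 in WT livers. Apcs encodes serum amyloid P, the major acute phase pentraxin of mice, and read 9.54, 9.47 and 10.09 in TB and 8.88, 8.00 and 8.45 in WT livers. Both genes separated the genotypes on all 6 arrays, with differences of 1.66 ± 0.70 and 1.26 ± 0.62. Within the larger array set these were 2.16 and 1.55, and within the smaller set 0.67 and 0.66. Lrg1, a leucine-rich plasma glycoprotein, had a difference of 0.90 ± 0.46, and Serpina3n, a protease inhibitor, one of 0.71 ± 0.30. Lbp, which hands bacterial lipopolysaccharide to its receptor, had one of 0.63 ± 0.42, and Hp, haptoglobin, which binds free haemoglobin, one of 0.48 ± 0.28. The 3 fibrinogen chains Fga, Fgb and Fgg differed by 0.22 ± 0.19, 0.15 ± 0.12 and 0.15 ± 0.14. In each of these 7 genes the arrays of the genotypes did not overlap. Crp, a weak acute phase gene in mice, overlapped, at 11.51, 11.69 and 11.81 in TB and 11.61, 11.61 and 11.63 in WT livers.

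**Figure D2:**
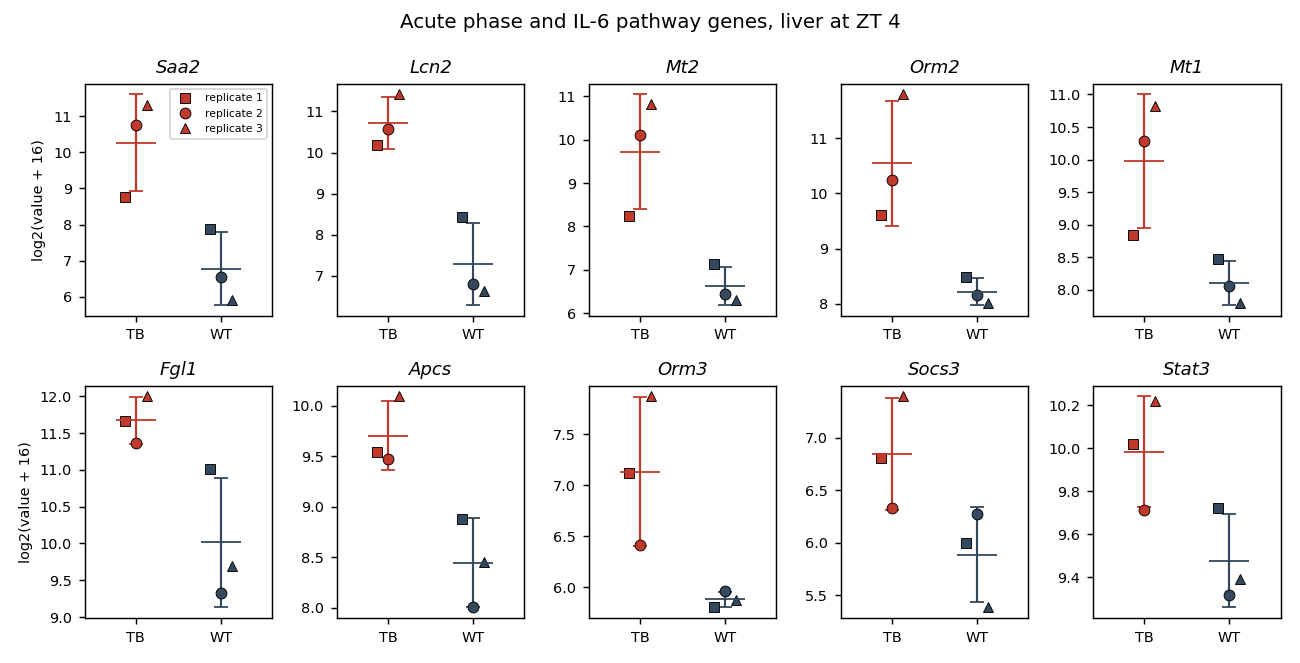
Levels of 10 acute phase and IL-6 pathway genes in the 3 TB (left, red) and 3 WT (right, dark) livers at ZT 4, as log2(value + 16) with each gene on its own axis, which does not start at 0. Markers give replicate 1 (square), 2 (circle) and 3 (triangle), horizontal lines the mean and bars 1 SD. In 9 genes the TB arrays lie above the WT arrays, while in Stat3 the lowest TB array (9.71) lies just below the highest WT array (9.72).

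Ligands, receptors and transducers of the IL-6 family were described as a list of their own. Of 27 measured members 21 had a positive difference, 5 (18.5%, against 4.8% of all genes) had all TB arrays above all WT arrays and 1 had them below, and the list median was 0.14. Without TB replicate 3 that median was 0.02. Without TB replicate 2 the count above was 9, against 9.39% of all genes, and without WT replicate 1 it was 8, against 10.7%. Il6 itself sat near the floor, at 4.67, 4.68 and 4.77 in TB and 4.45, 4.74 and 4.82 in WT livers. Among receptors, Osmr, the oncostatin M receptor subunit, read 7.52, 6.66 and 6.93 in TB and 6.54, 6.36 and 6.38 in WT livers, without overlap and with a difference of 0.61 ± 0.29. Il6st, which encodes the shared subunit gp130, read 10.57, 10.12 and 10.34 in TB and 10.13, 10.02 and 9.98 in WT livers. These overlapped by a single array on each side. Lifr, the receptor of leukaemia inhibitory factor, ran the other way, at 10.36, 10.56 and 9.89 in TB and 10.34, 10.74 and 11.22 in WT livers.

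Downstream of the receptors, Stat3 read 10.02, 9.71 and 10.22 in TB and 9.72, 9.32 and 9.39 in WT livers, a difference of 0.51 ± 0.27. Socs3, the feedback inhibitor that STAT3 induces, read 6.80, 6.33 and 7.39 in TB and 6.00, 6.28 and 5.38 in WT livers. Its groups did not overlap, although TB replicate 2 and WT replicate 2 lay close together, and the difference was 0.95 ± 0.50. Cebpd, a transcription factor of the acute phase, read 5.60, 4.70 and 5.30 in TB and 4.56, 4.52 and 4.69 in WT livers, where the lowest TB array lay just above the highest WT array, a difference of 0.61 ± 0.22. Jak1, a kinase of the receptor complex, had a difference of -0.05 ± 0.12.

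Promoter windows are shown here for a pair of genes from the 2 groups just described, both with a match to the motif below. The choice was made after their values were seen, and a part of the motif in the differences was not tested. Each window runs from 250 bases before to 50 bases after the RefSeq gene start, on the gene's strand, in build GRCm38.p6. Capitals mark a match to TTCNNNGAA, the palindromic core that STAT proteins bind (N is any base, and the motif reads the same on both strands). Socs3 lies at chr11:117969317-117969616 on the minus strand, with its match starting 154 bases before the start. Apcs lies at chr1:172895005-172895304 on the minus strand, with its match starting 244 bases before the start.
Socs3: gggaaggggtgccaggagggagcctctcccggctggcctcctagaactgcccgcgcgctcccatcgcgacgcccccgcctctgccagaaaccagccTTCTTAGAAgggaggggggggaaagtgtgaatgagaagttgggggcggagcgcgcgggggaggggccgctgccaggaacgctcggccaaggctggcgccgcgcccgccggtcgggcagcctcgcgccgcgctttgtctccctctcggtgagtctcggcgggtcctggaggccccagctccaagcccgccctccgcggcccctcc
Apcs: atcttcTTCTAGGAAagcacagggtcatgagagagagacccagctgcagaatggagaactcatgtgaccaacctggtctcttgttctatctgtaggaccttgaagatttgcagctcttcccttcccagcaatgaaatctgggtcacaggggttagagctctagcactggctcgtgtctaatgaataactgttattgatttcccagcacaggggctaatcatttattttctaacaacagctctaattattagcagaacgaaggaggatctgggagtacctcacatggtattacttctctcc
The motif occurred in 8.3% of all 32851 promoter windows, in 5 of 28 windows of acute phase genes (17.9%; Apcs, Fga, Fgb, Itih4 and Steap4) and in 3 of 34 windows of IL-6 pathway genes (8.82%; Socs3, Cish and Tnfrsf1a). The D-box TTATGNAA occurred in 10.7% of the acute phase windows and 2.94% of the IL-6 pathway windows, against 3.38% of all windows. For the ROR half-site AGGTCA these shares were 25.0%, 5.88% and 16.3%. A match is a description of these letters and no measure of binding.

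The metallothioneins Mt1 and Mt2 encode small cysteine-rich proteins that hold zinc and copper, and both are induced by metals, glucocorticoids and IL-6. Mt2 read 8.24, 10.10 and 10.81 in TB and 7.13, 6.44 and 6.32 in WT livers. Mt1 read 8.83, 10.28 and 10.82 in TB and 8.47, 8.06 and 7.79 in WT livers. The groups did not overlap for either gene, and as with Saa2 the 2 replicate 1 arrays lay closest to each other. The differences were 3.09 ± 1.04 and 1.87 ± 0.80. Mt2 differed by 4.08 in the larger and 1.11 in the smaller array set, and Mt1 by 2.62 in the larger and 0.36 in the smaller. Slc39a14, the zinc importer ZIP14 that IL-6 induces in mouse liver, read 9.31, 9.25 and 9.77 in TB and 9.01, 8.98 and 9.22 in WT livers, also without overlap, with a difference of 0.37 ± 0.32. Mtf1, the metal-sensing transcription factor, overlapped, with a difference of 0.07 ± 0.16. Of the 9 measured genes of metallothioneins and zinc transport, 3 had all TB arrays above the WT arrays (33.3%, against 4.8% of all genes). In 1, Slc39a8, all TB arrays lay below (11.1%, against 4.58%), and the list median was 0.07. Mt2 is also counted in the acute phase list above. A list of 20 glucocorticoid targets, which holds Mt2 and Lcn2, had a median of -0.04. In it 4 genes were separated above (20.0%, against 4.8%) and 4 below (20.0%, against 4.58%).

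The 2 metallothionein genes are neighbours on chromosome 8, and their windows are printed with capitals marking TGCNCNC on either strand. This motif is a looser form of the core of the metal response element, so a match need not be that core. The motif and these windows were also chosen after the values were seen. The Mt2 window is chr8:94172368-94172667 and the Mt1 window chr8:94178839-94179138, both on the plus strand.
Mt2: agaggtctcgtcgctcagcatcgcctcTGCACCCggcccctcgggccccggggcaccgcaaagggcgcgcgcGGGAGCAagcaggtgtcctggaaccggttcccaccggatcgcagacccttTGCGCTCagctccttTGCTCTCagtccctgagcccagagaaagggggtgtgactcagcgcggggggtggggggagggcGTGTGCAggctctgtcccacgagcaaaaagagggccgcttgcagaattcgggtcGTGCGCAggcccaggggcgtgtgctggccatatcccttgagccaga
Mt1: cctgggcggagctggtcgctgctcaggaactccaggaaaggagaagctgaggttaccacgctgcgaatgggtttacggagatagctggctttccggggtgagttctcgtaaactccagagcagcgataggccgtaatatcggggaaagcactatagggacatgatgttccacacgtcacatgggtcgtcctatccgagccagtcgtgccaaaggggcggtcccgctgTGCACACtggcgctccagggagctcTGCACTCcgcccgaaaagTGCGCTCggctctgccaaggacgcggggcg
The Mt2 window holds 6 matches to this looser form and the Mt1 window 3. The median over all windows was 1, 51.0% held at least 1, and 74 windows (0.225%) held at least as many as Mt2.

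Genes of iron handling, a process tied to IL-6 through hepcidin, had a median difference of -0.11 with 3 of 14 positive. Hamp, the hepcidin gene, read 12.72, 13.11 and 12.74 in TB and 12.84, 13.07 and 13.05 in WT livers, with overlap. Bmp6, the ligand that drives hepcidin and that comes largely from liver endothelium, read 6.74, 6.66 and 6.41 in TB and 7.35, 7.13 and 7.07 in WT livers. All TB arrays lay below all WT arrays, and its difference of -0.58 ± 0.18 had an unadjusted p of 0.00265. Tfrc, the transferrin receptor, was the other of the 2 members with that separation (14.3%, against 4.58% of all genes), at -0.25 ± 0.21. Complement genes had a median of 0.05 over 21 members with 0 all above and 1 all below (4.76%, against 4.58% of all genes). Coagulation genes had a median of 0.03 over 18 members with 4 above (22.2%, against 4.8% of all genes) and 2 below, and 3 of those 4 are the fibrinogen chains already given. Without TB replicate 2 the count above was 5 for complement and 8 for coagulation (9.39% of all genes), and without WT replicate 1 it was 5 and 6 (10.7%). F11, clotting factor XI, read 9.24, 9.21 and 9.37 in TB and 9.66, 9.66 and 9.91 in WT livers, a difference of -0.47 ± 0.14.

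The groups overlapped for most genes of the circadian clock. Of 18 measured core clock genes 9 had a positive difference, and the median was 0.02. All TB arrays lay above all WT arrays in 2, Per3 and Hlf (11.1%, against 4.8% of all genes), and below in 0. The activators Npas2 and Arntl, whose transcripts peak around lights on, had the smallest p of the list. Npas2, a partner of BMAL1, read 7.43, 7.62 and 6.57 in TB and 8.09, 8.25 and 7.25 in WT livers. Arntl read 8.33, 8.23 and 7.61 in TB and 8.63, 8.62 and 8.21 in WT livers. Replicate 3 was the lowest array of both genotypes for both genes, so the groups overlapped although each TB array lay below the WT array of its number. The differences were -0.66 ± 0.26 and -0.43 ± 0.19, with unadjusted p of 0.0164 and 0.0318. Clock, the other partner, had a difference of -0.06 ± 0.14.

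Among the repressors, Per3 read 5.77, 5.77 and 6.25 in TB and 5.35, 5.72 and 5.40 in WT livers, a difference of 0.44 ± 0.21. Per1 read 5.82, 6.34 and 6.35 in TB and 5.79, 5.44 and 5.85 in WT livers, where 1 TB array lay inside the WT range; the difference was 0.47 ± 0.34. Ciart, a repressor of BMAL1 with CLOCK, read 5.56, 5.01 and 5.45 in TB and 4.74, 5.28 and 4.58 in WT livers, with a difference of 0.48 ± 0.24. All 3 are repressors whose transcripts peak later in the day. Cry1 and Cry2 had differences of -0.25 ± 0.18 and -0.03 ± 0.17. Nr1d1 and Nr1d2, the REV-ERB repressors of Arntl, differed by -0.09 ± 0.37 and 0.06 ± 0.28. Rora, which activates Arntl through the same element, differed by -0.16 ± 0.12.

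The PAR bZIP output factors Dbp, Tef and Hlf had differences of 0.38 ± 0.24, 0.14 ± 0.20 and 0.14 ± 0.14, and Nfil3, their opponent, one of -0.06 ± 0.17. Dbp read 7.57, 7.75 and 8.36 in TB and 7.24, 7.55 and 7.74 in WT livers, with overlap of a single TB array. Bhlhe40 and Bhlhe41, further repressors, differed by 0.32 ± 0.21 and 0.13 ± 0.32, and Csnk1e, a kinase of the PER proteins, by -0.02 ± 0.15. The E-box CACGTG, which CLOCK, NPAS2 and BMAL1 bind, occurred in 24.0% of 25 promoter windows of core clock genes, against 7.15% of all windows and 0 of 28 windows of acute phase genes. Of 17 clock output genes outside the core, 0 had all TB arrays above and 4 had them below the WT arrays (23.5%, against 4.58% of all genes), with a median of -0.12. The median was -0.07 in the larger and 0.09 in the smaller array set. One of these was Ppard, a nuclear receptor of fatty acids, at 6.46, 6.27 and 6.10 in TB and 6.95, 6.80 and 6.66 in WT livers.

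**Figure D3:**
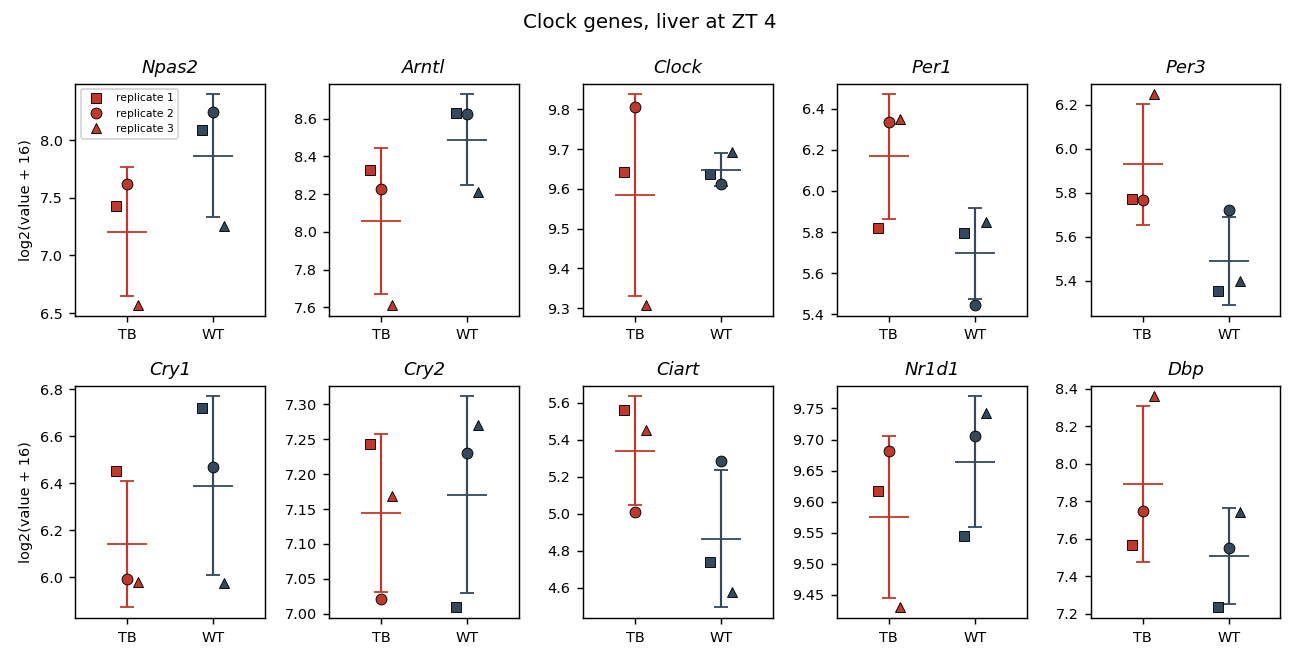
Levels of 10 clock genes in the 3 TB (left, red) and 3 WT (right, dark) livers at ZT 4, as log2(value + 16) with each gene on its own axis, which does not start at 0. Markers give replicates 1 to 3, lines the mean and bars 1 SD. For Npas2 and Arntl replicate 3 (triangles) is lowest in both genotypes, and Per3 is the gene shown whose groups do not overlap.

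Bile acid synthesis starts from cholesterol and follows the feeding and clock rhythm of the liver. Cyp7a1, the rate-limiting enzyme of the classical pathway, read 9.87, 10.36 and 10.32 in TB and 8.74, 9.89 and 9.47 in WT livers. One TB array lay just inside the WT range, and the difference was 0.82 ± 0.31. Its mean over the other 5 times was -0.14, and the test of that contrast gave 0.96 ± 0.34 with an unadjusted p of 0.00756 and an adjusted p of 1.00. Cyp7b1, of the alternative pathway and higher in male mice, read 10.26, 10.09 and 9.92 in TB and 10.58, 10.91 and 11.03 in WT livers, all TB arrays below, with a difference of -0.75 ± 0.34. Cyp8b1 and Cyp27a1 had differences of -0.06 ± 0.33 and 0.07 ± 0.10. Over the 22 bile acid genes the median was -0.08 (-0.14 in the larger and 0.02 in the smaller array set), with 0 separated above and 4 below (18.2%, against 4.58% of all genes), among them the export pump Abcb11 at -0.22 ± 0.19.

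Cholesterol synthesis had a positive difference in 17 of 19 measured genes with a median of 0.18, and 5 genes had all TB arrays above the WT arrays (26.3%, against 4.8% of all genes). That count was 9 without TB replicate 1 (10.5% of all genes), 8 without TB replicate 3 (9.07%), 10 without WT replicate 1 (10.7%) and 14 in the larger array set (17.6%). With all 6 arrays the 5 were Fdft1 and Cyp51, enzymes of sterol assembly, at 0.28 ± 0.20 and 0.24 ± 0.22, Nsdhl at 0.27 ± 0.27, Tm7sf2 at 0.12 ± 0.16, and Srebf2, the transcription factor of the pathway, at 0.16 ± 0.21. Fdft1 read 11.16, 11.18 and 10.97 in TB and 10.95, 10.82 and 10.69 in WT livers. Scap, which escorts SREBP proteins to the Golgi, had all TB arrays below, at 9.46, 9.49 and 9.44 in TB and 9.86, 9.75 and 9.71 in WT livers. No difference in this list but that of Scap (-0.31 ± 0.15) had an unadjusted p under 0.05. The median over the other 5 times was 0.01, which joins opposite signs. By time the list median was 0.20 at ZT 0, -0.21 at ZT 8, -0.25 at ZT 12, 0.33 at ZT 16 and 0.11 at ZT 20.

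Of 26 genes of fatty acid oxidation 14 had a positive difference, and the median of 0.01 was -0.08 in the larger and 0.28 in the smaller array set. All TB arrays lay above in 2 (7.69%, against 4.8% of all genes) and below in 0. Without TB replicate 3 the count above was 9 (34.6%, against 9.07%). Ppara, the nuclear receptor that drives the program in fasting, read 9.12, 9.21 and 9.23 in TB and 8.98, 8.43 and 8.91 in WT livers, without overlap and with a difference of 0.41 ± 0.18. Cpt1a, which lets long-chain fatty acids into mitochondria, read 10.34, 10.60 and 10.46 in TB and 10.07, 10.06 and 10.33 in WT livers, a difference of 0.32 ± 0.19. These are the 2 members with all TB arrays above. Cyp4a14, an omega-hydroxylase and a sensitive PPARα target in mice, read 8.99, 9.88 and 6.06 in TB and 5.38, 6.16 and 6.30 in WT livers. TB replicates 1 and 2 stood well above the others while TB replicate 3 lay inside the WT range, and the difference was 2.36 ± 1.12. Vnn1, another PPARα target, was likewise lowest of the TB arrays in replicate 3, at 8.74, 8.54 and 7.50 in TB and 7.32, 7.33 and 7.60 in WT livers. Fgf21, a fasting hormone of the liver, was high in TB replicate 1 at 8.25 and read 6.93 and 6.64 in the other TB and 6.60, 6.44 and 7.25 in the WT livers; its difference was 0.51 ± 0.28, and -0.06 within the larger array set. Pltp, the phospholipid transfer protein of plasma, read 10.45, 10.68 and 9.51 in TB and 9.74, 9.07 and 8.88 in WT livers, a difference of 0.98 ± 0.46 with overlap.

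Of 24 measured genes of insulin signalling 0 had non-overlapping arrays, against 9.38% of all genes. Without TB replicate 1 all TB arrays lay below in 5, against 15.8%. Differences ran from -0.47 to 0.17 with a median of -0.06. Insr, the insulin receptor, read 9.22, 9.07 and 9.09 in TB and 9.10, 9.04 and 9.01 in WT livers. Irs1 and Irs2, its docking proteins, differed by -0.30 ± 0.21 and -0.03 ± 0.31. Of the gluconeogenic enzymes, G6pc read 11.60, 11.26 and 10.92 in TB and 11.21, 11.38 and 11.91 in WT livers, and Pck1 differed by 0.13 ± 0.35; the list of 14 had a median of -0.02.

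Glucose use and lipogenesis are driven by insulin after feeding. Of 19 genes of glycolysis and glycogen 5 had all TB arrays below (26.3%, against 4.58% of all genes) and 1 above, and the median of -0.07 was -0.11 in the larger and 0.04 in the smaller array set. The gene above was Ldha, lactate dehydrogenase A, at 10.71, 10.35 and 10.31 in TB and 10.20, 9.84 and 10.00 in WT livers, a difference of 0.45 ± 0.16. In fatty acid synthesis 1 of 24 genes was separated each way (4.17%). Srebf1, the transcription factor of lipogenesis, read 8.77, 8.73 and 9.11 in TB and 9.08, 9.56 and 9.46 in WT livers, a difference of -0.50 ± 0.21 with overlap of 1 array. Scd1, the stearoyl-CoA desaturase, read 13.02, 13.05 and 13.03 in TB and 12.88, 12.77 and 12.55 in WT livers, without overlap. Acly, which supplies acetyl-CoA, was the gene below, at -0.28 ± 0.23, and Fasn differed by 0.01 ± 0.22.

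Urea cycle and amino acid genes lay mostly lower in TB. A positive difference was found in 3 of 24, all TB arrays lay below in 6 (25.0%, against 4.58% of all genes) and above in 1, and the median was -0.16, against 0.01 over the other 5 times. Ass1, argininosuccinate synthase, read 6.85, 6.64 and 6.59 in TB and 7.38, 7.31 and 7.37 in WT livers. Tdo2, which opens the tryptophan ring, read 11.36, 11.55 and 11.58 in TB and 11.69, 11.92 and 11.88 in WT livers. Both were separated on all 6 arrays, with differences of -0.66 ± 0.27 and -0.34 ± 0.11. Cps1, the first enzyme of the urea cycle, and Slc25a15, the ornithine carrier, differed by -0.20 ± 0.11 and -0.26 ± 0.14, also without overlap. The exception above was Mat1a, which makes S-adenosylmethionine, at 0.23 ± 0.17.

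Further lists with negative medians had shares of separated genes above that of all genes. Oxidative phosphorylation had 3 of 34 positive, 7 separated below (20.6%, against 4.58% of all genes) and 0 above, and a median of -0.12, close to the -0.14 of the other 5 times; Ndufa2, a complex I subunit, read 8.41, 8.51 and 8.63 in TB and 8.89, 8.84 and 8.86 in WT livers. Its count below was 15 without TB replicate 1 (15.8% of all genes), 16 without WT replicate 1 (10.0%) and 23 in the larger array set (22.8%). Conjugation enzymes had 6 of 23 separated below (26.1%) and 1 above with a median of -0.16, which was -0.26 in the larger and -0.00177 in the smaller array set. Gstp1, a glutathione transferase, read 11.44, 11.69 and 11.92 in TB and 12.04, 12.62 and 12.32 in WT livers. Without WT replicate 1 the count of conjugation enzymes below was 14 (60.9%, against 10.0% of all genes). Heat shock genes had 4 of 16 separated below (25.0%), among them the HSP90 gene Hsp90aa1 at -0.37 ± 0.27, and a median of -0.13. Interferon response genes had a median of -0.12 with 3 of 26 separated below (11.5%) and 1 above, and Ifit1 read 6.49, 6.60 and 6.63 in TB and 7.40, 7.05 and 7.00 in WT livers.

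Genes that male mice express more than females, under pulsed growth hormone, had all TB arrays below in 8 of 14 (57.1%, against 4.58% of all genes) and above in 1, with a median of -0.40, against -0.00477 over all genes. Mup21, a major urinary protein gene of a near-identical family, read 8.74, 8.29 and 7.84 in TB and 9.41, 9.09 and 9.69 in WT livers, a difference of -1.10 ± 0.78. Hsd3b5 and Elovl3 differed by -0.61 ± 0.99 and -0.56 ± 0.98, and their wide errors come from groups at other times that enter the shared spread. The list median was -0.52 in the larger and -0.15 in the smaller array set, and -0.29 over the other 5 times. By time it was -0.98 at ZT 0, -0.15 at ZT 8, -0.09 at ZT 12, -0.07 at ZT 16 and 0.08 at ZT 20. Of 12 female-biased genes 9 had a positive difference, with 0 separated either way and a median of 0.08.

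**Figure D4:**
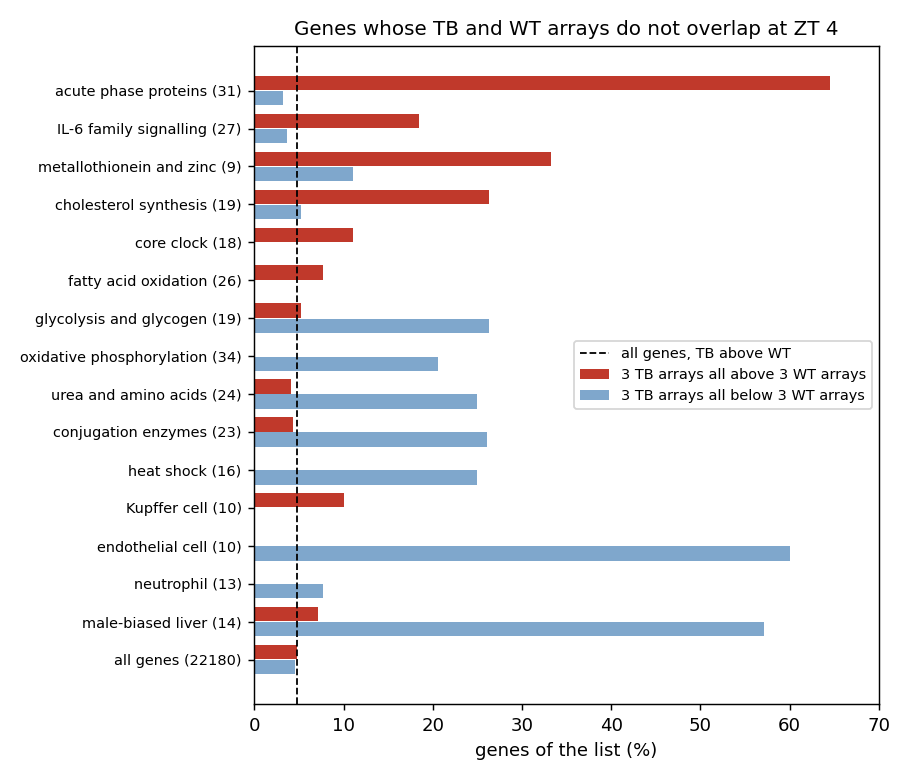
Share of measured genes (%) in each list, with the list size in brackets, whose 3 TB arrays all lie above (red) or all below (blue) the 3 WT arrays at ZT 4. The dashed line and lowest row give all 22180 genes, at 4.8% above and 4.58% below; acute phase proteins reach 64.5% above, endothelial markers 60.0% below and male-biased genes 57.1% below.

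Markers of the other cells of the liver were examined in the same arrays. In bulk tissue fewer cells of a type and less RNA per cell cannot be told apart. Endothelial markers had all TB arrays below in 6 of 10 (60.0%, against 4.58% of all genes), above in 0, and a median of -0.17, against 0.02 over the other 5 times. Kdr, the VEGF receptor of endothelium, read 8.60, 8.68 and 8.52 in TB and 8.82, 8.79 and 8.92 in WT livers, a difference of -0.24 ± 0.13. Oit3, Stab1, Clec4g, Cdh5 and Pecam1 were the other 5, with differences of -0.30 ± 0.17, -0.21 ± 0.14, -0.23 ± 0.18, -0.19 ± 0.15 and -0.14 ± 0.14. The summed intensity of the 10 markers lay between 2317 and 2633 in TB and between 2774 and 2983 in WT livers, without overlap. A separate list of 18 endothelial adhesion genes had 13 positive and a median of 0.10. In it 2 were separated each way (11.1%, against 4.8% of all genes above and 4.58% below). Vwf, von Willebrand factor, and the chemokine Cxcl2 lay above at 0.22 ± 0.17 and 0.24 ± 0.16. Esam was 1 of the 2 below, at -0.26 ± 0.16. Ackr1, a chemokine-binding receptor of venules, differed by 0.47 ± 0.18 with overlap. Bmp6, given above, was also separated below, and the part of these markers in its value was not tested.

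Kupffer cell markers had a median of 0.08 with 1 of 10 separated above (10.0%, against 4.8% of all genes). This was the scavenger receptor Marco, at 8.08, 7.45 and 7.92 in TB and 7.15, 7.07 and 6.57 in WT livers. Monocyte and macrophage markers had 2 of 9 separated above (22.2%, against 4.8%), among them Cx3cr1 at 0.37 ± 0.15, and a median of 0.08. Lung epithelial markers, of the organ that bears the tumour, had a median of 0.06 over 11 genes with 0 separated, against 9.38% of all genes. Their summed intensity lay between 513.7 and 576.1 in TB and between 533.0 and 563.5 in WT livers. Skeletal muscle markers had a median of -0.05 with 0 of 14 separated, against 9.38% of all genes. T and NK cell markers had 1 of 10 separated above (10.0%, against 4.8%), Klrb1c at 0.16 ± 0.29, while Cd4 differed by -0.59 ± 0.22 with overlap. Stellate, cholangiocyte, B cell, erythroid and adipocyte markers had 0 separated of 11, 6, 7, 3 and 6, against 9.38% of all genes. At that share, lists of this size can hold 0 separated genes. Pancreatic acinar markers had 1 of 6 separated below (16.7%, against 4.58% of all genes).

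The 6 genes each way with the smallest p, with predicted genes, olfactory and vomeronasal receptors, microRNAs and pseudogenes left out, are given next. H2-Q1, a class I MHC gene of a near-identical family, had the smallest unadjusted p of these, 3.94e-05 (adjusted p 0.24). It read 7.43, 7.60 and 7.35 in TB and 6.48, 6.77 and 6.73 in WT livers, a difference of 0.80 ± 0.17. Vwa1, an extracellular matrix gene, Cyp21a1, the steroid 21-hydroxylase, Inka1, an inhibitor of the kinase PAK4, and Tll2, a metalloprotease, followed at 0.45 ± 0.12, 0.69 ± 0.19, 1.02 ± 0.29 and 0.32 ± 0.09, together with Lcn2. Lower in TB were Rnf146, a ubiquitin ligase, at -0.38 ± 0.10, Grk5, a kinase of G protein-coupled receptors, at -0.82 ± 0.22, Mrps31, of the mitochondrial ribosome, at -0.37 ± 0.10, Tecpr1, of autophagy, at -0.33 ± 0.09, Rnd1, a small GTPase, at -0.70 ± 0.20, and Speer1 at -0.45 ± 0.13. Grk5 read 6.68, 6.43 and 6.09 in TB and 7.16, 7.53 and 6.97 in WT livers. Arrays of the genotypes did not overlap in any of these 12 genes, against 9.38% of all genes. The genes were picked for a small p on these same arrays, so this is no further evidence.

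Some further genes differed by more than 1 and were picked for that after their values were seen. Selenbp2, a selenium-binding protein of the liver, had the most negative difference, at 9.65, 10.02 and 10.25 in TB and 11.23, 11.63 and 11.64 in WT livers, -1.53 ± 0.50 without overlap. Cyp2c38 read 10.46, 10.39 and 9.45 in TB and 9.06, 8.84 and 8.61 in WT livers, 1.27 ± 0.47. Clca3a1, of the chloride channel accessory family, read 7.81, 6.30 and 6.70 in TB and 6.12, 5.22 and 5.24 in WT livers, 1.41 ± 0.46. Mustn1, known from muscle, read 9.99, 8.62 and 9.02 in TB and 8.28, 7.98 and 7.98 in WT livers, 1.13 ± 0.38.

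The ZT 4 difference was set against that at the other times. limma called 0 genes whose difference at ZT 4 departed from the mean of the other 5 times (0.0% called, 1.89% at an unadjusted p under 0.05), 0 against ZT 0 (3.11% unadjusted) and 0 against ZT 8 (2.47% unadjusted), or 1 against ZT 8 with the replicate number as a block. No gene can therefore be called particular to ZT 4. The smallest adjusted p against the other 5 times was 0.623, for H2-Q1, whose contrast was 0.85 ± 0.18, and against ZT 8 it was 0.10 for the same gene. Rnd1 had the strongest contrast downward, -0.86 ± 0.22, with mean differences of -0.70 at ZT 4 and 0.16 over the others. Saa2 differed by -2.24 at ZT 0, 3.49 at ZT 4, 2.58 at ZT 8, 0.46 at ZT 12, 3.30 at ZT 16 and -0.01 at ZT 20. Its contrast of ZT 4 against ZT 0 was 5.73 ± 1.55 with an unadjusted p of 0.000867 and an adjusted p of 1.00. Lcn2, over the same 6 times in order, differed by -0.95, 3.44, 3.48, 1.42, 3.26 and 0.41. For both genes ZT 4, 8 and 16 were high. The acute phase list's median was 0.35 at ZT 4 and 0.27 over the means of the other 5 times. By time it was -0.03 at ZT 0, 0.44 at ZT 8, 0.27 at ZT 12, 0.56 at ZT 16 and 0.14 at ZT 20, so ZT 8 and ZT 16 lay above ZT 4. The list of leading raised genes of the whole series, which was chosen on these same arrays and is no independent evidence, had 15 of 15 positive at ZT 4. Its median was 0.51, and 8 were separated above (53.3%, against 4.8% of all genes). The list of leading lowered genes, chosen in the same way, had 10 of 10 negative with a median of -0.30. In it 9 were separated below (90.0%, against 4.58%).

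**Figure D5:**
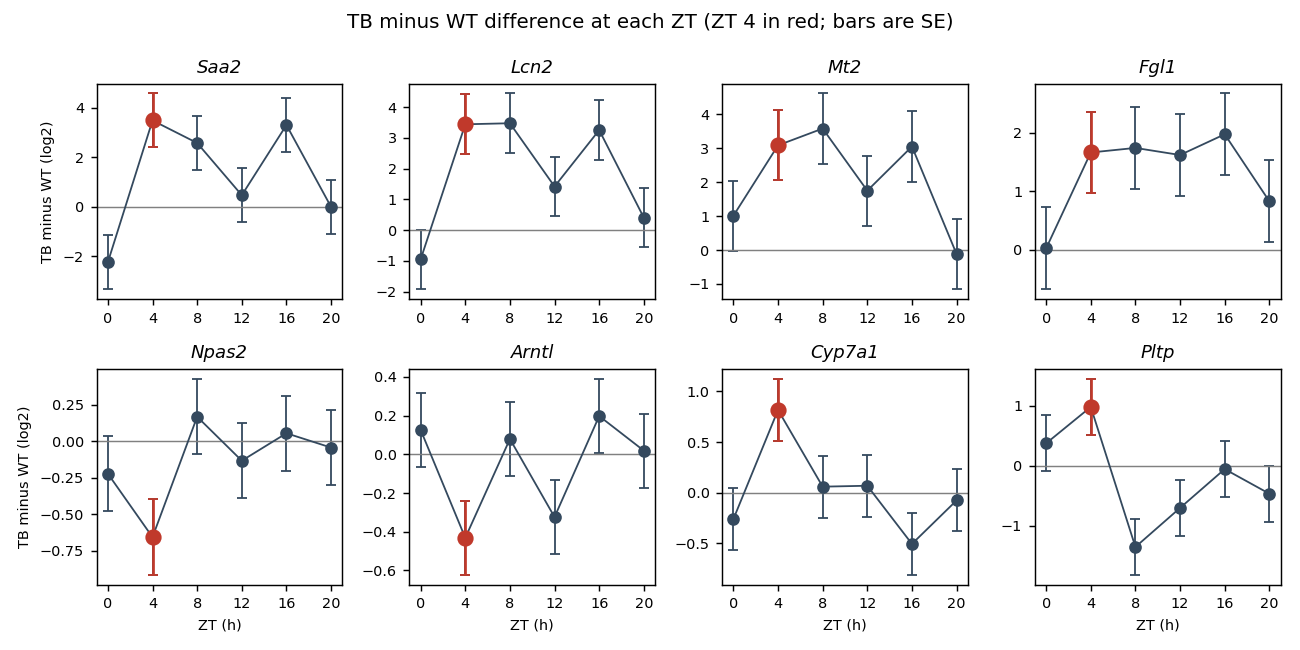
TB minus WT difference (log2) at ZT 0 to 20 for 8 genes, with ZT 4 in red and bars of 1 standard error from the fit to all 36 arrays; each point is 3 TB against 3 WT arrays and the axes differ between genes. Saa2 and Lcn2 are above 3 at ZT 4 and below 0 at ZT 0, and Npas2, Arntl and Cyp7a1 lie farthest from 0 at ZT 4.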

How the data were processed

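RNA of 36 mouse livers, 6 of them at ZT 4, was measured on 1-colour arrays. The authors deposited linear probe set intensity values for 41345 probe sets, made with Affymetrix Expression Console 1.1.1 and PLIER 2.0 per the submitters' processing notes. How arrays were scaled to each other is not given in the sources used here. From the deposited intensity, log2(value + 16) was computed, so that differences understate changes of genes near or under 16 units, as 23.0% of values were. Array medians lay between 36.3 and 43.3.

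Probe sets with 1 gene symbol in the platform annotation (23521; 1814 had several and 16010 none) gave 22180 genes, using the probe set with the highest mean for the 1082 genes with several. By Entrez identifier, 99.2% of the 23521 matched RefSeq GRCm38.p6. Promoters came from RefSeq in that build. Genes of the tumour model and listed genes with no matching symbol are not analysed here.

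limma 3.58.1 in R 4.3.3 (lmFit, eBayes) fitted 12 group means to all 36 arrays, which share 1 spread (24 residual degrees of freedom; median SD within groups 0.184). Adjusted p-values are Benjamini-Hochberg over all genes, two-sided, with 0.05 as threshold; the fit was tested on simulated data. With 3 arrays per group, their number limits the precision. Deviations from group means correlated at 0.413, 0.221 and 0.176 between same-numbered TB and WT arrays at ZT 4, and above 0.1 in 14 of 18 such pairs at all times, so a replicate block was tried.

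The members and lists were chosen with earlier results of these data known. Up to 4 genes of each list with the smallest p, 6 genes each way with the smallest p (predicted genes, olfactory and vomeronasal receptors, microRNAs and pseudogenes left out), and core clock and sex chromosome genes were named by rule; others were named for their role or size. Settings tried were the pseudocount, normalization, filter, probe set choice, blocks, array weights, subsets of arrays and leaving out each array.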

Additional observations from a re-analysis of the deposited data

Results flagged for a closer look

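Probe set 17549126, which has no gene symbol in the annotation and is not among the genes tested above, differed by 4.38 on the log2 scale at ZT 4. Its intensity was 341.9, 348.3 and 306.6 in TB and 0.0, 0.9 and 1.3 in WT livers at that time. Over all times it lay between 270.2 and 403.7 in the 18 TB arrays and between 0.0 and 3.5 in the 18 WT arrays. It was the only 1 of 41345 probe sets on which all TB and all WT arrays were separated, and no array went against its genotype label. With all probe sets in the fit, limma gave it an adjusted p of 1.14e-22 at ZT 4. What it detects was not tested.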

How the results depend on the processing

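With 0 genes called in the setting of the report, calls of a ZT 4 difference appeared under 4 alternatives and 1 left-out array. For genes higher in TB the count was 1 with a pseudocount of 1 (Gm11565, adjusted p 0.00366), 1 with the array set as a block (Gm11565, 0.0164), 1 with all probe sets (the unnamed 1), and 2 with array weights (Gm11565 and Gm5523). It ranged from 0 to 1 over left-out arrays, with 1 (1600029O15Rik, 0.0405) without WT replicate 3. The count of genes lower in TB was 0 in every setting run. Against the other 5 times 1 gene was called with a pseudocount of 1; against ZT 8, 3 with array weights; against ZT 0, 0 to 1 over left-out arrays, with 1 without WT replicate 3. The replicate block, which pairs arrays by number, gave 1 gene against ZT 8 and changed no other of these counts. The cause was not tested.

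The acute phase genes with TB arrays all above WT arrays numbered 20 to 23 of 31 when any 1 array was left out and 23 in the larger array set, where 8.4% to 10.7% and 17.6% of all genes did so; these counts, and those of the other lists without an array or in the larger set, were added after the data were seen. The counts below for interferon response were 5 without TB replicate 1 or 3 (19.2%) and 6 without WT replicate 3 (23.1%). For urea and amino acids they were 11 without TB replicate 3 or WT replicate 1 (45.8%). For heat shock they were 6 without TB replicate 1 (37.5%) and 7 without WT replicate 3 (43.8%). Of all genes, 15.8% lay below without TB replicate 1 and 7.68% without TB replicate 3. That share was 10.0% without WT replicate 1 and 8.6% without WT replicate 3. The acute phase list median ranged from 0.26 to 0.49 over left-out TB arrays, and that of IL-6 signalling was 0.02 without TB replicate 3. Differences that were positive in the full fit were -0.063 (Fgf21) and -0.022 (Cyp1a1) in the larger array set; over left-out arrays that of Ebp ranged from -0.024 to 0.40 and that of Cyp2b13 from -0.052 to 0.43.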
